A study of Papio anubis with 12 samples.

Results

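Antioxidant defence enzymes are the genes with which a cell removes superoxide, peroxides and the reactive products of oxidised lipid. The list held 41 genes, chosen by symbol, and they were looked up among the probe sets whose platform annotation gives exactly 1 gene symbol. Of the 41 genes, 40 were measured by 75 probe sets, out of 54613 probe sets and 19775 genes on the array. The remaining gene, PRDX5, is unnamed in the annotation used here. For each gene the probe set with the highest mean over the 12 arrays stood for the gene. Its other probe sets are given beside it for some genes and only counted for the rest.

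The samples were RNA of the precentral gyrus, the motor strip of the cerebral cortex, from 12 baboon neonates, with 1 array and 1 animal per sample. The animals were born at about 182 days of gestation, were allotted to 3 formulas with 4 animals in each, and were 83 to 87 days old after 12 weeks of feeding. Formula C held neither docosahexaenoic acid (DHA) nor arachidonic acid (ARA), formula L held 0.33% DHA with 0.67% ARA, and formula L3 held 1.00% DHA with the same ARA. Group C had 2 males, group L had 1 and group L3 had 0, and the record of the second C animal names its tissue only as brain. Formula L3 differs from formula L by DHA alone, whereas both differ from C by DHA and ARA together. The arrays carry probes designed on human transcripts, so a signal depends on how well the baboon transcript matches them, and levels of different probe sets are not set against each other.

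Superoxide dismutases turn superoxide into hydrogen peroxide, which catalase breaks down directly and the glutathione peroxidases and peroxiredoxins reduce with electrons that come mainly from glutathione and thioredoxin. Glutathione transferases join glutathione to reactive products such as lipid aldehydes. The transcription factor NRF2, encoded by NFE2L2, turns on many of these genes, and KEAP1 holds NRF2 back until oxidants or electrophiles modify it. Brain tissue is rich in DHA, a highly unsaturated fatty acid whose double bonds are open to oxidation, and the study asked how dietary DHA and ARA bear on expression in the developing cortex.

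The values are MAS5 signals, a measure of brightness in which every array had been scaled to 1 trimmed mean, and all 12 arrays lay between 250.01 and 250.02. Differences are on the scale of quantile normalized log2(signal + 16), which understates the change of dim probe sets, and were tested with limma. The spike-in control signal differed among arrays from 10.8 to 13.7 on the log2 scale with a mean of 12.7 ± 1.31 (SD, n = 4) in L3, 12.0 ± 0.66 in C and 11.7 ± 0.98 in L, so the groups overlapped. Of the 6 arrays with the higher spike-in signal, 3 were L3 arrays, 2 were C arrays and 1 was an L array. The ratio of the 3' to the 5' control probe set of ACTB, a sign of RNA integrity, ran from −0.15 to 6.18 on the log2 scale, and its highest value was in L3 replicate 1. Its mean was 2.71 in L3, 1.95 in C and 1.18 in L, and the groups overlapped. The 6 arrays with the higher spike-in signal were also the 6 with the highest ACTB ratio. The boundary was narrow, with 1.868 in L3 replicate 3 against 1.864 in C replicate 3. Splits by spike-in signal are therefore also splits by this ratio. The 10 neuron markers were all bright, the lowest with a mean signal of 1620. They are markers of neurons and do not tell cortex from other regions of the brain.

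No antioxidant gene differed between formulas at an adjusted p under 0.05 in limma, in any of the comparisons, and over all 54613 probe sets the number was also 0. In L/C, 24 of the 40 genes were higher and 16 lower, against 49.1% of all probe sets that were higher, and the median log2 difference was 0.07. There, 0 genes had an unadjusted p under 0.05 in limma, against 2.42% of all probe sets and 2.13% when each gene is represented by its brightest. In L3/C, 23 were higher and 17 lower, against 49.9% of all probe sets higher, and the median was 0.06. An unadjusted p under 0.05 was found for 4 genes (10%), against 4.26% of all probe sets and 3.94% of the brightest. SOD2, GPX7 and SRXN1 were the 3 that were higher, where the share of all probe sets was 2.22%, and KEAP1 was the 1 that was lower, where it was 2.04%. In L3/L, 17 were higher and 23 lower, against 50.5% of all probe sets higher, and the median was −0.07. PRDX3 (higher) and KEAP1 (lower) had an unadjusted p under 0.05, which is 5% of the genes against 5.40% of all probe sets (2.96% higher and 2.44% lower) and 5.16% of the brightest. Over all probe sets the medians were −0.01, −0.00 and 0.01. These splits depended on the scaling of the arrays for formula L3. With each array centred on its median instead, 8 genes were higher and 32 lower in L3/C and 7 higher and 33 lower in L3/L, while all probe sets moved to medians of −0.12 and −0.13, and with no further scaling L3/C had 20 higher and 20 lower. In L/C 26 to 28 genes were higher under these scalings. L/C and L3/C rest on the same 4 C arrays, so their differences are not independent of each other.

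**Figure D1:**
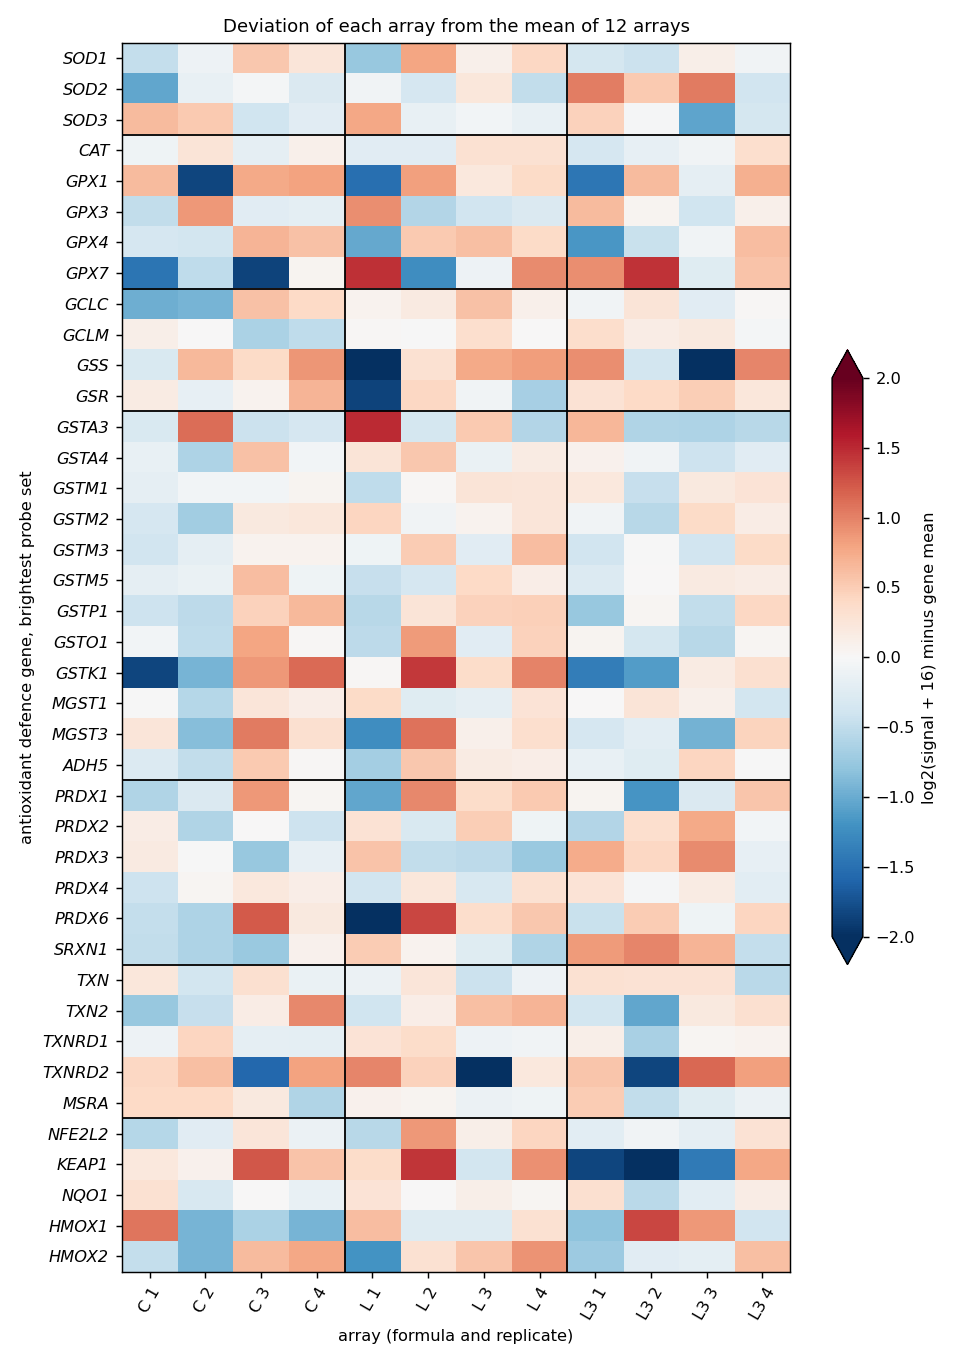
Level of the 40 antioxidant genes in each of the 12 arrays, as log2(deposited signal + 16) minus the mean of the gene over the arrays, with red for above and blue for below the mean. Columns are animals by formula and replicate, rows are genes grouped by role, and the colour scale ends at 2 and −2. KEAP1 is lowest in L3 replicates 1, 2 and 3, and in most rows the arrays of 1 formula span both colours.

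In no gene of the 40 did the 4 arrays of 1 formula all lie above or below the 4 of another. The share of all probe sets without overlap was 2.10% in L/C, 2.21% in L3/C and 2.66% in L3/L. At shares this small, finding none among 40 genes is not a contrast with the array. The median size of a difference was 0.17 in L/C, 0.20 in L3/C and 0.19 in L3/L, below the median standard error of 0.32. Differences of 2-fold or more were found for 1 gene in L/C, 2 in L3/C and 2 in L3/L, against 4.87%, 7.20% and 8.81% of all probe sets. The 95% confidence interval of the difference lay wholly within a 2-fold change for 23 of the 40 genes in L/C, 24 in L3/C and 23 in L3/L. Intervals that held both 0 and a 2-fold change were found for 17 genes in L/C, 12 in L3/C and 15 in L3/L, and those of the genes with an unadjusted p under 0.05 reached a 2-fold change without holding 0.

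**Figure D2:**
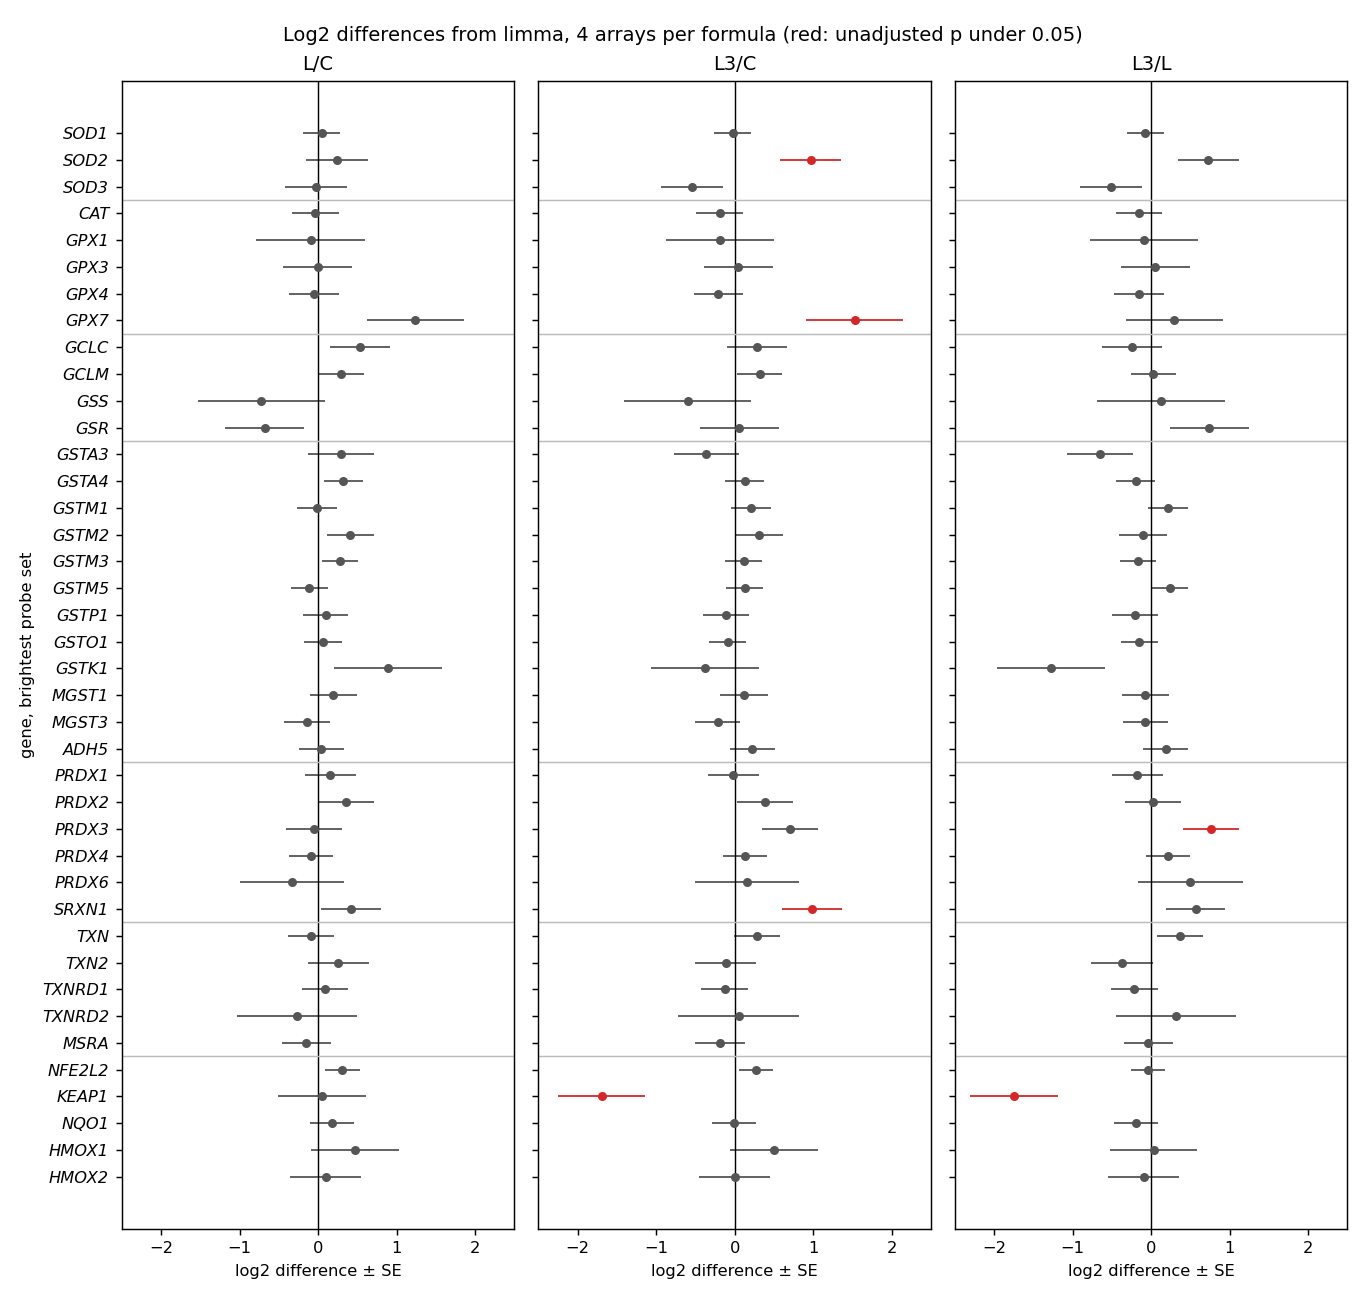
Log2 difference of each of the 40 genes in L/C, L3/C and L3/L, with bars of 1 standard error from limma and red for an unadjusted p under 0.05. Genes stand in order of role, separated by grey lines. Most points lie within 1 standard error or little more of 0, and KEAP1, at −1.69 in L3/C and −1.74 in L3/L, lies farthest to the left.

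The largest differences on the list were those of KEAP1, the adaptor that marks NRF2 for breakdown. Its signal was 373, 344, 783 and 487 in the C arrays, 416, 893, 245 and 620 in the L arrays, and 78.6, 68.8, 111 and 561 in the L3 arrays. L3 replicates 1, 2 and 3 lay below all 8 arrays of C and L, and replicate 4 lay within their range, so the groups overlapped. In L3/C KEAP1 differed by −1.69 ± 0.56 (log2, SE), a 3.23-fold lower level with an unadjusted p of 0.00782 in limma and an adjusted p of 0.999. In L3/L it was −1.74 ± 0.56 with an unadjusted p of 0.00644 and an adjusted p of 0.891 in limma. The exact permutation test of 4 against 4 arrays, two-sided, gave p = 0.114 in L3/C and 0.0857 in L3/L, where 0.0286 is the smallest it can give. In L/C the difference was 0.05 ± 0.56. KEAP1 was also the 1 gene of the 40 with an unadjusted p under 0.05 for any difference among the formulas (0.00932 in limma), against 3.67% of all probe sets.

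The KEAP1 difference stood in both comparisons at an unadjusted p under 0.05 when any 1 of the 12 arrays was left out, with log2 differences of −2.35 to −1.43 in L3/C. The 3 low L3 arrays were among the 6 with the higher spike-in signal, in which C lay at 344 to 373, the L array at 416 and L3 at 68.8 to 111. Among the 6 with the lower spike-in signal, C lay at 487 to 783, L at 245 to 893 and the single L3 array at 561. With the spike-in signal as a covariate the difference was −1.26 in L3/C and −1.12 in L3/L, with unadjusted p of 0.0174 and 0.0395 in limma. A single probe set measures KEAP1.

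NFE2L2, the transcription factor that KEAP1 binds, had signals of 838, 1070, 1478 and 1158 in C, 846, 2289, 1362 and 1689 in L, and 1075, 1186, 1098 and 1536 in L3. The 3 ranges overlapped throughout. Its log2 difference was 0.31 ± 0.22 for L/C and 0.27 ± 0.22 for L3/C, with unadjusted p of 0.175 and 0.236 in limma. The probe set of NFE2L2 in the study's tables is another, dim one, at 25.0 to 42.3 in C, 13.3 to 44.4 in L and 31.2 to 158 in L3, and gave −0.03 ± 0.44 for L/C and 0.73 ± 0.44 for L3/C. The remaining genes of this group are classic targets of NRF2 or related to them. NQO1, a quinone reductase, differed by 0.18 for L/C and −0.01 for L3/C. HMOX1, the inducible heme oxygenase, differed by 0.47 ± 0.56 and 0.50 ± 0.56, and HMOX2, the constitutive form, by 0.10 and 0.00. HMOX1 was spread widely within each formula, from 80.2 to 369 in C and from 89.6 to 445 in L3. All 5 genes of the group had positive differences in L/C under each scaling, and 3 of 5 in L3/C, or 2 without further scaling and 1 with array medians centred.

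SOD2, the manganese superoxide dismutase of mitochondria, was the 1 superoxide dismutase with an unadjusted p under 0.05. Its signals were 132, 258, 280.0 and 232 in C, 272, 224, 338 and 201 in L, and 600.5, 423, 605 and 216 in L3. L3 replicates 1, 2 and 3 lay above all C and L arrays, and L3 replicate 4 lay inside both ranges. The log2 difference was 0.97 ± 0.39 in L3/C, a 1.95-fold higher level, with an unadjusted p of 0.025 and an adjusted p of 0.999 in limma. In L/C it was 0.24 ± 0.39. The paper reports SOD2 as lower in L/C and higher in L3/C in these same animals, so the L3/C difference is not separate support. The exact permutation test gave p = 0.0857 in L3/C. Without C replicate 1, L3 replicate 1 or L3 replicate 3 the unadjusted p of limma came to 0.0902, 0.0759 and 0.0765, and with sex as a covariate the difference was 0.81 with a p of 0.0957.

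The L3 arrays that were high in SOD2 were again those with the higher spike-in signal. Within those 6 arrays SOD2 lay at 132 to 258 in C and 423 to 605 in L3, and within the other 6 at 232 to 280.0 in C and 216 in the single L3 array. With the spike-in signal as a covariate the L3/C difference was 0.84, with an unadjusted p of 0.051 in limma. The probe set described is the only one annotated to SOD2 alone. The 4 others are annotated to both SOD2 and its neighbour SOD2-OT1, and their log2 differences in L3/C were −1.71, −0.42, 0.23 and −0.20. Their mean signals were 60.7, 36.7, 57.65 and 310, against 315 for the probe set described. The first, dim at a mean of 95.95 in C and 16.6 in L3, had an unadjusted p of 0.00888 in limma. The last, about as bright as the probe set described, was not higher in L3/C.

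SOD1, the copper-zinc enzyme of the cytosol, had signals of 1310.5, 1692, 2651 and 2159 in C, 1067, 3147, 1962 and 2446 in L, and 1429, 1345, 1979 and 1727 in L3. All groups overlapped, and the log2 difference was 0.05 ± 0.24 for L/C and −0.03 ± 0.24 for L3/C. SOD3, the secreted enzyme, differed by −0.02 ± 0.39 for L/C and −0.54 ± 0.39 for L3/C. Its C arrays read 514, 474, 244 and 277, its L arrays 569, 294, 311 and 294, and its L3 arrays 454, 322, 148 and 252. The lowest value was an L3 array, but the other L3 arrays lay within the range of C.

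Of catalase and the 4 glutathione peroxidases, GPX7 stood apart from the rest in size. GPX7, a peroxidase of the endoplasmic reticulum, had signals of 17.5, 48.9, 9.5 and 79.0 in C, 236, 23.0, 69.1 and 160.5 in L, and 159, 234, 61.6 and 119.8 in L3. Only L3 replicate 3 lay below the highest C array, and the L arrays ran across the whole range. GPX7 differed by 1.24 ± 0.62 in L/C, with an unadjusted p of 0.0628 in limma and 0.143 in the exact permutation test. In L3/C it differed by 1.53 ± 0.62, with an unadjusted p of 0.0247 in limma and 0.0571 in the exact permutation test. The C signals were close to the 16 added before taking logs, so the size of this difference rests on dim values. Leaving out C replicate 1, C replicate 3 or L3 replicate 2 took the p in L3/C to 0.0684, 0.0757 and 0.0677, and a sex covariate to 0.0915, while with the spike-in covariate it was 0.0254.

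GPX4, which reduces lipid peroxides within membranes, was bright and did not separate the formulas. Its signals were 1489, 1462, 3038 and 2832 in C, 915, 2709, 2873 and 2467 in L, and 829, 1379, 1795 and 2901 in L3. The log2 difference was −0.05 ± 0.32 for L/C and −0.21 ± 0.32 for L3/C. CAT, catalase itself, differed by −0.04 ± 0.30 and −0.19 ± 0.30. GPX1, the cytosolic peroxidase, and GPX3, the plasma form, differed by −0.10 and −0.00 in L/C and by −0.19 and 0.05 in L3/C. GPX1 was at 79.0 in C replicate 2, 104 in L replicate 1 and 108.5 in L3 replicate 1, and from 284 to 587 in the other arrays, so each formula held 1 low array.

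Among the genes that make and recycle glutathione, none had an unadjusted p under 0.05 by its brightest probe set. GSR, the reductase that regenerates glutathione from its disulphide, had signals of 229, 179, 215 and 337 in C, 44.8, 277, 193 and 122 in L, and 253, 272, 293 and 241 in L3. L replicates 1 and 4 lay below every C and L3 array, and the L3 arrays lay within the range of C. On the log2 scale the difference was −0.68 ± 0.50 for L/C and 0.06 ± 0.50 for L3/C. The second probe set of GSR, which is that of the study's tables, read 219, 388, 139.9 and 203 in C, 338, 44.5, 68.3 and 42.2 in L, and 110.2, 111, 31.0 and 179.8 in L3. By this probe set GSR differed by −1.26 ± 0.59 in L/C, with an unadjusted p of 0.048 in limma and 0.114 in the exact permutation test. In L3/C it differed by −1.25 ± 0.59, with an unadjusted p of 0.0496 in limma and 0.0571 in the exact permutation test. The paper reports GSR as higher in L/C and lower in L3/C, so the direction in L/C was the opposite here. The study had chosen this probe set by its p in these same animals, so these values are not separate support. L replicate 1 was the lowest of 12 arrays by the brightest probe set and the next to highest by the second.

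GCLC, the catalytic subunit of the enzyme that limits glutathione synthesis, had signals of 215, 222, 664 and 577 in C, 457, 493, 662 and 470.0 in L, and 414, 522, 369.5 and 445 in L3. The C arrays formed a low and a high pair, and all L and L3 arrays lay between the lowest and the highest C array. The low pair were the 2 C arrays of higher spike-in signal. The log2 difference was 0.53 ± 0.38 for L/C and 0.28 ± 0.38 for L3/C. GCLM, its modifier subunit, differed by 0.29 ± 0.29 and 0.32 ± 0.29 and varied least of all the genes within formulas, with a pooled SD of 0.19 on the log2 scale. All 3 probe sets of GCLM had positive differences in both comparisons with C, none with an unadjusted p under 0.05. GSS, which adds the last amino acid of glutathione, varied most, with a pooled SD of 1.45, and differed by −0.72 ± 0.81 and −0.60 ± 0.81. A second, dimmer probe set of GSS gave 0.34 ± 0.66 and −0.29 ± 0.66.

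Of the 12 genes in the group of glutathione transferases and ADH5, 9 were higher in L/C, 7 were in L3/C and 3 were in L3/L. Their median log2 differences were 0.15, 0.12 and −0.13, and none had an unadjusted p under 0.05. The direction in L3/C turned with the scaling, with 5 of 12 higher without further scaling and 0 of 12 with each array centred on its median. GSTK1, a transferase of mitochondria and peroxisomes, had the widest differences of the group. Its signals were 38.9, 87.3, 341 and 417 in C, 185, 506, 238.5 and 374 in L, and 59.1, 74.2, 204 and 231 in L3. The C arrays ran below and above the L3 arrays, and the lowest L array lay within both. The log2 difference was 0.89 ± 0.69 in L/C, −0.38 ± 0.69 in L3/C and −1.27 ± 0.69 in L3/L, the last with an unadjusted p of 0.0826 in limma.

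GSTM2, a cytosolic transferase of the mu class, had signals of 769, 595, 1116 and 1145 in C, 1315, 927, 1025 and 1154 in L, and 924, 658.5, 1277 and 1084 in L3, and differed by 0.41 ± 0.30 and 0.31 ± 0.30. The mu class genes GSTM1, GSTM2, GSTM3 and GSTM5 are close in sequence, and the ending of the GSTM1 and GSTM2 probe sets (_x_at) marks probes that can match more than 1 transcript, so their signals may be shared. GSTM1, GSTM3 and GSTM5 differed by −0.02, 0.28 and −0.11 in L/C and by 0.20, 0.11 and 0.13 in L3/C. A second probe set of GSTM1, practically as bright (mean signal 815.72 against 815.76), gave 0.07 ± 0.30 for L/C and −0.35 ± 0.30 for L3/C. The sign of GSTM1 in L3/C thus turned with the probe set. GSTA3, an alpha class transferase, was dim, at 15.4, 68.3, 12.9 and 15.0 in C, 93.6, 14.7, 40.0 and 9.9 in L, and 45.6, 9.6, 9.4 and 10.6 in L3. Most of these values lay below the 16 added before taking logs, and the differences of 0.29 ± 0.42 for L/C and −0.36 ± 0.42 for L3/C rest on 1 or 2 brighter arrays per formula. GSTA4, which conjugates the lipid aldehyde 4-hydroxynonenal, differed by 0.32 and 0.13.

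MGST3, a membrane transferase with peroxidase activity, gave opposite pictures by its probe sets. Its brightest read 2990, 1391, 5169 and 3142 in C, 1056.5, 5385, 2695 and 3191 in L, and 1986, 2176, 1304 and 3439 in L3, with a log2 difference of −0.14 ± 0.29 for L/C and −0.21 ± 0.29 for L3/C. Another, dimmer than the brightest, read 120.1, 394, 137 and 173 in C, 312, 224, 225 and 161 in L, and 334.5, 496, 738 and 272 in L3. By that one MGST3 was higher by 1.11 ± 0.41 in L3/C, with an unadjusted p of 0.0162 in limma. ADH5, which breaks down formaldehyde and nitrosothiols bound to glutathione, read 683, 584, 1201 and 842 in C, 512, 1214, 933 and 914 in L, and 748, 700.0, 1122 and 820 in L3, and differed by 0.04 ± 0.29 and 0.23 ± 0.29. The probe set of ADH5 in the study's tables, the dimmer one, read 193, 144, 192 and 131 in C and 220.2, 449.6, 417.5 and 233 in L3. By it ADH5 was higher by 0.81 ± 0.39 in L3/C, with an unadjusted p of 0.0523 in limma and 0.0571 in the exact permutation test. In L/C it was higher by 0.11 ± 0.39. The study had chosen this probe set too by its p in these animals, so it is not separate support.

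Peroxiredoxins and sulfiredoxin had the largest median of any role in L3/C, at 0.27 with 5 of 6 genes higher, and in L3/L, at 0.36 with 5 of 6 higher, but with each array centred on its median they were 0.02 and −0.02 with 3 of 6 higher. In L/C the median was 0.05 with 3 of 6 higher. SRXN1, sulfiredoxin, which restores peroxiredoxins inactivated by excess peroxide, read 218, 198, 180.1 and 331 in C, 448, 329, 262 and 199 in L, and 576, 628, 509 and 220.1 in L3. L3 replicates 1, 2 and 3 lay above every C and L array, and L3 replicate 4 lay among the C arrays. On the log2 scale the difference was 0.42 ± 0.38 for L/C and 0.99 ± 0.38 for L3/C, where SRXN1 was 1.98-fold higher with an unadjusted p of 0.0187 and an adjusted p of 0.999 in limma and a p of 0.0571 in the exact permutation test. The p of limma in L3/C became 0.0512, 0.0514 and 0.0593 without C replicate 2, L3 replicate 1 and L3 replicate 2. Within the 6 arrays of higher spike-in signal SRXN1 lay at 198 to 218 in C, 448 in L and 509 to 628 in L3, and within the other 6 at 180.1 to 331 in C and 220.1 in L3. With the spike-in covariate the L3/C difference of SRXN1 was 0.79, with an unadjusted p of 0.0451 in limma.

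PRDX3, the peroxiredoxin of mitochondria, read 461, 403, 233 and 361.5 in C, 613, 284, 277 and 235.5 in L, and 693, 544.5, 794 and 358.5 in L3. In each formula the arrays of higher spike-in signal held the highest values. PRDX3 differed by −0.05 ± 0.36 in L/C and, with an unadjusted p of 0.0636 in limma, by 0.71 ± 0.36 in L3/C. In L3/L it differed by 0.76 ± 0.36, with an unadjusted p of 0.0487 in limma and 0.114 in the exact permutation test. In L3/L the p stayed under 0.05 in 2 of the 12 refits that each left out 1 array, those without L replicate 1 and without L3 replicate 4, and the differences ran from 0.58 to 1.06. With the spike-in signal as a covariate the L3/L difference was 0.37 with an unadjusted p of 0.265 in limma. A second probe set of PRDX3 gave −0.20 ± 0.56 in L3/C.

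PRDX1, the abundant cytosolic form, read 1227, 1534, 3417 and 1932 in C, 905, 3642, 2424 and 2703 in L, and 1950.3, 820.3, 1525.5 and 2768 in L3. The arrays of each formula spanned more than a 2-fold range, and the log2 difference was 0.16 ± 0.33 for L/C and −0.02 ± 0.33 for L3/C. PRDX2, the form abundant in neurons and red cells, differed by 0.36 and 0.38, and PRDX4, the form of the endoplasmic reticulum, by −0.09 and 0.13. PRDX6, which also acts on phospholipid peroxides, differed by −0.34 ± 0.67 and 0.16 ± 0.67, with 1 L array at 75.6 and the others of that formula at 882 to 1753.

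**Figure D3:**
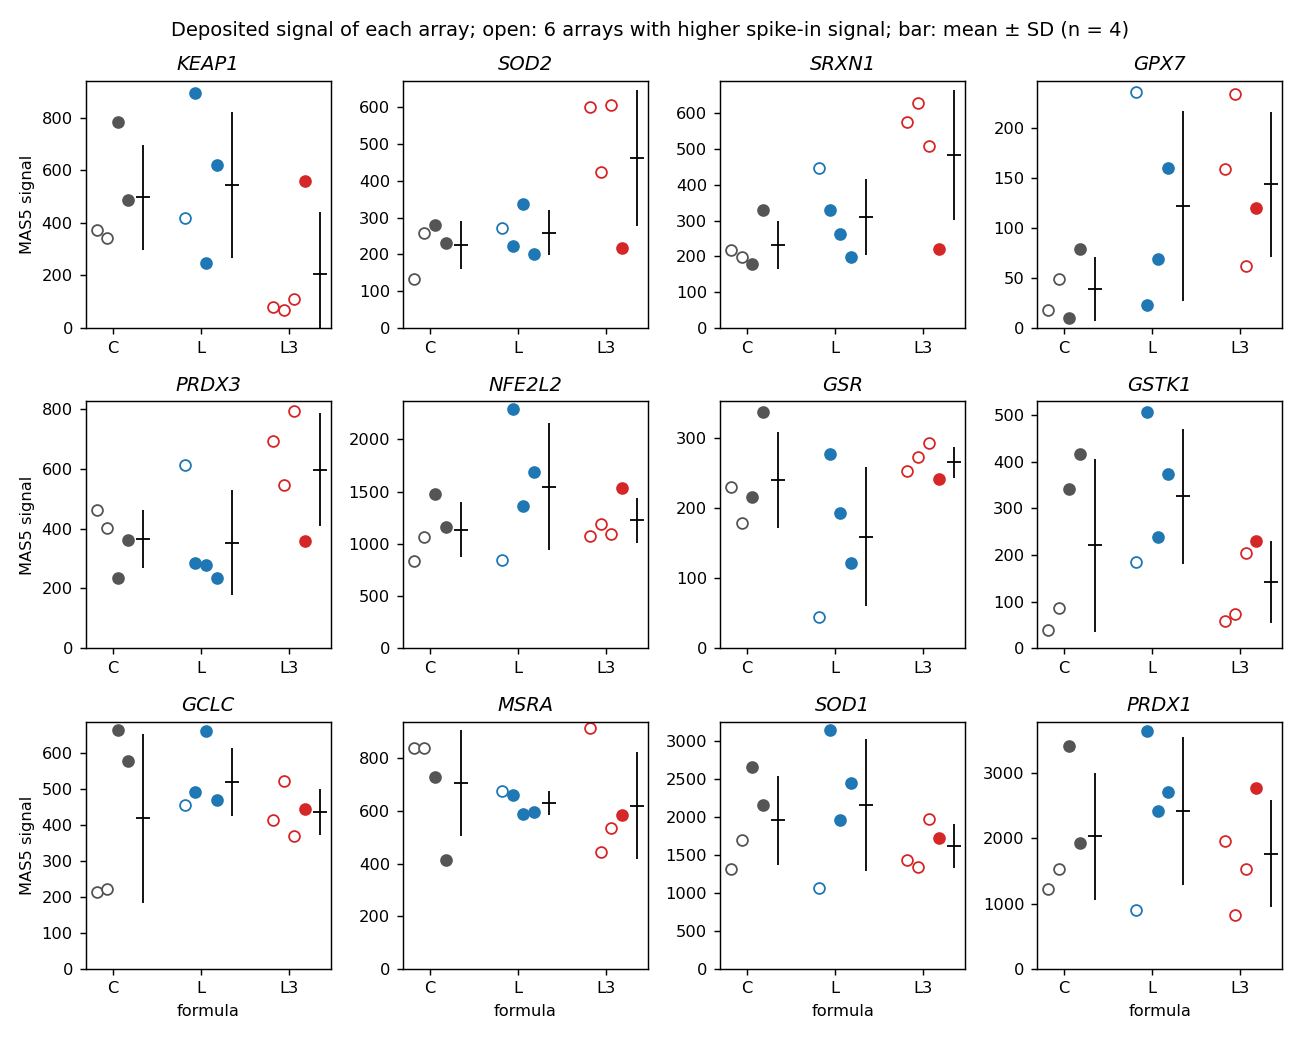
Deposited MAS5 signal of each array for 12 of the genes, by formula, with open circles for the 6 arrays of higher spike-in signal and a bar for the mean ± SD of 4 arrays (cut at 0 for KEAP1). In KEAP1, SOD2 and SRXN1 the L3 array of lower spike-in signal, L3 replicate 4, lies among the C and L arrays while the other 3 L3 arrays lie apart from them. In SOD1 and PRDX1 the arrays of the formulas are interleaved.

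The thioredoxin system and MSRA, a repair enzyme for oxidised methionine, showed medians of −0.09 in L/C, −0.11 in L3/C and −0.04 in L3/L over 5 genes, and under the other scalings these medians remained negative. MSRA read 839.5, 838, 731 and 413 in C, 677, 661, 587 and 598 in L, and 914, 446, 536 and 583 in L3. The L arrays lay within the span of the C arrays, and the difference was −0.15 ± 0.31 for L/C and −0.19 ± 0.31 for L3/C. A second, dim probe set of MSRA gave 0.96 and 0.65, neither with an unadjusted p under 0.05 in limma. The probe set of MSRA in the study's tables has no symbol in the annotation and was not analysed here.

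TXN, the thioredoxin of the cytosol, read 2003, 1332, 2146 and 1563 in C, 1580.5, 2038, 1275 and 1598 in L, and 2117.5, 2102, 2088 and 1170.3 in L3. L3 replicates 1, 2 and 3 lay close together near the top of the C range, and replicate 4 was the lowest of the 12 arrays. The log2 difference was −0.09 ± 0.29 for L/C and 0.28 ± 0.29 for L3/C. TXN2, the form of mitochondria, differed by 0.26 and −0.11. TXNRD1 and TXNRD2, the reductases that recharge both thioredoxins, differed by 0.09 and −0.27 in L/C and by −0.12 and 0.05 in L3/C. A second, dim probe set of TXNRD1 gave 1.29 ± 0.55 in L3/L, with an unadjusted p of 0.0319 in limma.

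How far a difference holds for a gene rather than for 1 probe set can be read from the 24 genes with more than 1 probe set. All probe sets of a gene had the same sign in 13 of these 24 genes in L/C, in 9 in L3/C and in 9 in L3/L. Among the 35 probe sets that were not the brightest, the number at an unadjusted p under 0.05 was 1 for L/C, 2 for L3/C and 1 for L3/L, against 2.42%, 4.26% and 5.40% of all probe sets. Of the 4 genes with an unadjusted p under 0.05 in L3/C, none has a second probe set with that symbol alone.

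**Figure D4:**
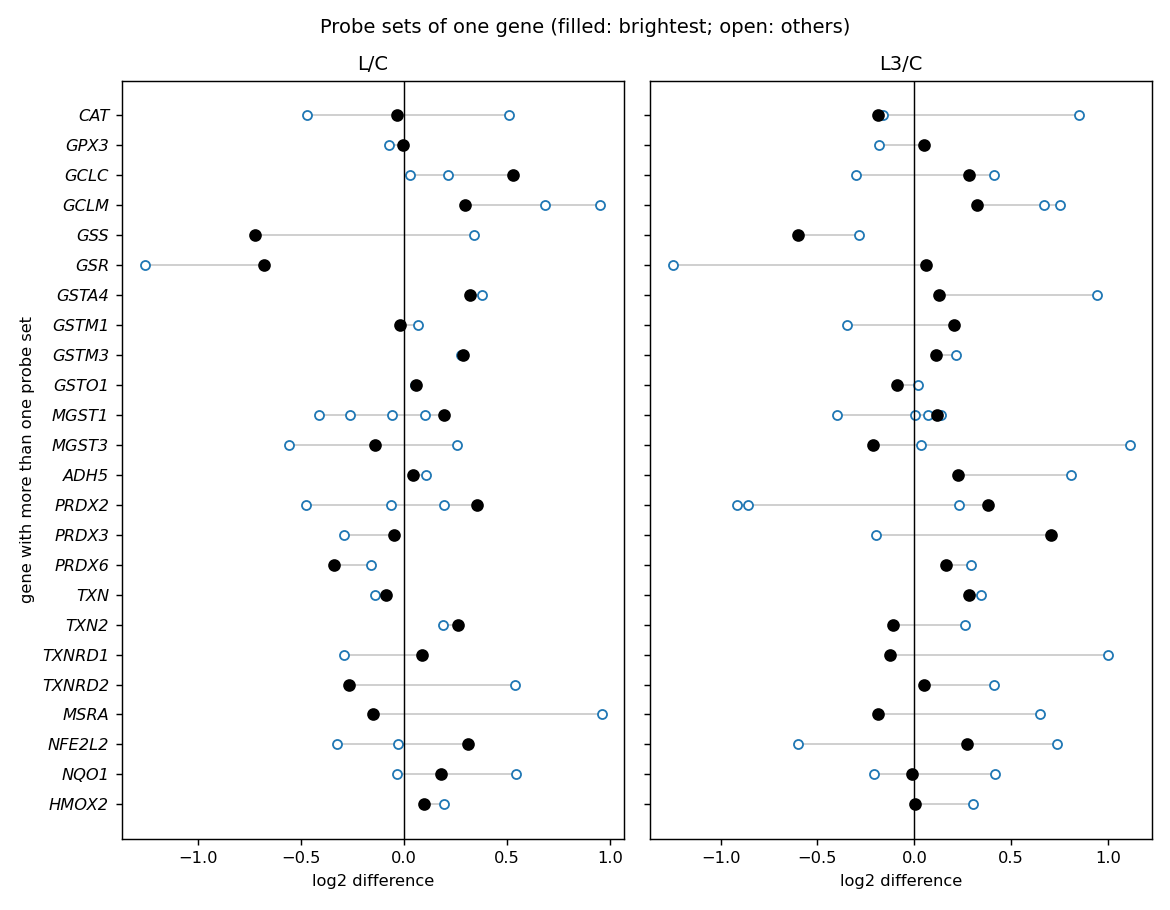
Log2 difference in L/C and L3/C for each probe set of the 24 genes with more than 1, with filled points for the brightest and open points for the others. The lines that join the probe sets of a gene cross 0 in 11 genes for L/C and 15 for L3/C, among them GSR, PRDX3 and MGST3 in L3/C.

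A further 73 genes of the same pathways were listed from textbook knowledge, and 67 of them were measured. They comprise other glutathione enzymes, further thioredoxin and methionine sulfoxide reductase genes, the supply of NADPH, other NRF2 pathway genes, and other enzymes that make or remove reactive oxygen. In L/C 35 were higher and 32 lower, with 0 at an unadjusted p under 0.05, against 2.42% of all probe sets. In L3/C 34 were higher and 33 lower, and 4 (5.97%) had an unadjusted p under 0.05, against 4.26% of all probe sets. In L3/L 33 were higher and 34 lower, and 3 (4.48%) had an unadjusted p under 0.05, against 5.40%. The medians were 0.03, 0.02 and −0.01.

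Of these genes GSTCD, which encodes a protein with a transferase-like domain, differed most. It read 214, 151.9, 79.4 and 151.4 in C, 184, 128.5, 205 and 236 in L, and 469.5, 807, 546 and 206 in L3. By deposited signal L3 replicates 1, 2 and 3 lay above all C and L arrays, and replicate 4 lay among them. On the normalized values all 4 L3 arrays lay above all 4 C arrays. GSTCD differed by 1.59 ± 0.42 in L3/C, with an unadjusted p of 0.0016 in limma and 0.0286 in the exact permutation test of the normalized values, and by 1.24 ± 0.42 in L3/L, with an unadjusted p of 0.00951 in limma. GGT1, which starts the breakdown of extracellular glutathione, read 366, 169, 317 and 284 in C and 410.5, 629, 558 and 452 in L3. All 4 of its L3 arrays lay above all 4 C arrays, and the difference was 0.86 ± 0.34, with an unadjusted p of 0.0212 in limma and 0.0286 in the exact permutation test. BLVRA, which reduces the biliverdin that heme oxygenase makes, was higher by 0.52 in L3/C, and SLC3A2, a subunit of the cystine carrier, differed by −1.01, with unadjusted p of 0.0496 and 0.027 in limma. In L3/L the other 2 genes were lower, MSRB1, which repairs oxidised methionine, by a difference of −1.52 ± 0.57 and OPLAH, which returns 5-oxoproline to glutathione synthesis as glutamate, by −1.34 ± 0.55, with unadjusted p of 0.0159 and 0.027 in limma. None of these had an adjusted p under 0.05. On the normalized values 2 of the 67 genes, GSTCD and GGT1, had no overlap of groups in L3/C, against 2.21% of all probe sets. In L3/L there was 1, against 2.66%, and in L/C 0, against 2.10%.

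The tissue was whole cortex, so fewer cells of a type and less RNA per cell cannot be told apart in any of these values. Markers of the other cell types that a block of cortex holds were read beside the antioxidant genes. In L/C all 8 microglia markers were higher, with a median of 0.37, and all 5 markers of the meninges, with a median of 0.60. In L3/C the medians were 0.05 for microglia, 0.93 for the meninges with 4 of 5 higher, and −0.25 for oligodendrocytes with 6 of 7 lower. The summed signal of the meninges markers ran from 2112 to 6617 in C, from 2928 to 11508 in L and from 3036 to 14967 in L3, so the groups overlapped. Neuron markers had medians of 0.05 and −0.11 in these comparisons, and astrocyte markers of 0.06 and 0.09. In L3/L all 7 oligodendrocyte markers were lower, with a median of −0.29, 6 of 8 astrocyte markers were higher, with 0.29, and the microglia and meninges markers had medians of −0.20 and 0.24. The 6 markers of liver, another tissue, had medians of −0.72 in L/C, 0.11 in L3/C and 0.63 in L3/L. Their summed signal ran from 1804 to 7923 in C, 1788 to 6540 in L and 1766 to 20915 in L3. ALB, albumin, alone ran from 178 to 4121 in C, 28.4 to 3605 in L and 5.9 to 13180 in L3. Whether these markers bear on the antioxidant values was not tested.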

How the data were processed

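RNA of the precentral gyrus of 12 baboon neonates, 4 per formula, was read on Affymetrix HG-U133 Plus 2.0 arrays. The deposited table holds linear intensity values, the MAS5 signal that the authors' software summarized for each probe set and scaled to a common trimmed mean. The paper's methods describe RMA, and the deposited intensity values are not RMA values. The groups, sex and age came from the sample records.

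After removal of 62 control probe sets, log2(signal + 16) was quantile normalized, and limma 3.58.1 (R 4.3.3) estimated a mean for each of the 3 formulas, leaving 9 residual degrees of freedom, with a variance trend. P values were adjusted by Benjamini-Hochberg over 54613 probe sets at 0.05. Exact two-sided permutation tests compared 4 with 4 arrays. The number of arrays limits the precision. Of the probe sets, 41091 have 1 symbol, 1801 several and 11721 none in the annotation. Fold changes and the counts of groups without overlap rest on normalized values, and array by array values are deposited signals.

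The 19 genes given array by array are those the paper names, those with an unadjusted p under 0.05 or the 6 smallest p of a comparison, those without overlap of groups, and the brightest of each role. The members and lists were chosen with earlier results of these data known. Alternatives covered normalization, pseudocount, dim probe sets, variance model, covariates, probe set choice, a block by replicate number and each array omitted in turn. The split by spike-in signal was chosen after seeing the data. The scripts were tested on simulated data. Python 3.11.15, numpy 2.4.6, pandas 2.3.3 and matplotlib 3.10.9 were used for figures.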

Additional observations from a re-analysis of the deposited data

Results flagged for a closer look

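In 5 of 57 groups of 4 arrays examined, 1 array stood apart from the other 3 by more than Dixon's 95% critical value, the ratio being its gap to the nearest other array over the range of the group. Chance alone gives about 1 such group in 20. The ratios were taken on the normalized log2 values. The signals printed beside them are deposited signals, from which other ratios would follow. KEAP1 in L3 replicate 4 was at 561 against 68.8 to 110.7 in the other L3 arrays, with a ratio of 0.860. TXN in the same array was at 1170.3 against 2087.6 to 2117.5, with a ratio of 0.842. ADH5 in L3 replicate 3 was at 1122 against 700.0 to 820, with a ratio of 0.862. SOD3 in L replicate 1 was at 569 against 294 to 311, with a ratio of 0.919. GSTA3 in C replicate 2 was at 68.3 against 12.9 to 15.4, with a ratio of 0.878.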

How the results depend on the processing

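The number of antioxidant genes with an adjusted p under 0.05 was 0 in all 115 recomputed counts. Those with an unadjusted p under 0.05 numbered 0 in L/C, 4 in L3/C, 2 in L3/L and 1 for any difference. In L/C the count became 1 without a variance trend (2.74% of all probe sets) and in females only (2.94%). It was also 1 with age (3.60%) or the ACTB ratio (3.05%) as a covariate. It became 3 with the mean over all probe sets. In L3/C it became 2 with a sex covariate, against 3.22% of all probe sets. In L3/L it became 1 with array medians centred (5.38%), a pseudocount of 1 (5.35%), no trend (5.60%) or the methods' tests without moderation (5.23%). It was also 1 with sex (4.40%), females only (3.93%) or the mean over all probe sets. For any difference it became 2 with a pseudocount of 1, no trend, females only, age, the replicate block and plain _at probe sets (33 genes), 5 with the mean over all probe sets, 0 in the 6 lower arrays and 7 in the 6 higher. The 6 arrays of higher spike-in signal hold 1 L array and the 6 of lower signal hold 1 L3 array. The spread of a group of 1 array was taken from the other groups. The counts given above for these splits can therefore not be set against each other, and no conclusion is drawn from them. Apart from those counts, only effect sizes are given for these splits. With the mean over all probe sets the shares of all genes with an unadjusted p under 0.05 were 2.49% in L/C, 5.51% in L3/L and 3.81% for any difference. Leaving out 1 array gave 0 to 1 in L/C, 2 to 6 in L3/C, 1 to 6 in L3/L (6 without L3 replicate 4) and 1 to 5 for any difference (5 without L3 replicate 4). Without L3 replicate 4 the shares of all probe sets were 7.88% in L3/C, 9.95% in L3/L and 6.81% for any difference. A count of 2 in L3/C was that without C replicate 1 (3.95% of all probe sets), L3 replicate 1 (4.87%) or L3 replicate 2 (3.69%). The medians of 0.06 in L3/C and −0.07 in L3/L became −0.19 and −0.29 with array medians centred, where the median over all probe sets became −0.12 and −0.13, and 0.18 and 0.093 in the 6 higher arrays. In the 6 lower arrays, with 1 L3 array whose spread was taken from the other groups, SOD2 and SRXN1 in L3/C turned to −0.31 and −0.25 and KEAP1 in L3/L to 0.16. In the 6 higher arrays L3/C was 1.42 for SOD2, 1.34 for SRXN1 and −1.91 for KEAP1. The cause was not tested. The replicate numbers have no stated meaning and the reported fit does not pair by them. Same-numbered arrays correlated by 0.14 to 0.19 for replicate 1 and 0.26 to 0.33 for replicate 4 but by −0.09 to 0.06 for replicates 2 and 3, and 6 of 12 arrays correlated best with their own number. With the replicate block as a pairing the counts were 5 in L3/C, 3 in L3/L and 2 for any difference, against 5.19%, 7.01% and 4.94% of all probe sets.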
